A study of Gallus gallus with 12 samples.

Results

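The comparison described here is that of *timeless* DT40 cells, in which both alleles of *TIMELESS* are disrupted (TIMELESS KO in the labels), with wild-type DT40 cells (WT). Its members are the 3 *timeless* and the 3 WT RNA-seq libraries, chosen by their genotype label, which make 6 of the 12 libraries of the series. The remaining 6 libraries came from *ddx11* (DDX11 KO) and *fancj* (FANCJ KO) cells, 3 of each, and were used only to place single genes. DT40 is a line derived from a chicken bursal B-cell lymphoma. All lines were grown untreated in the same RPMI-based medium with fetal bovine and chicken serum, and polyadenylated RNA was sequenced. The *timeless* line was made with CRISPR-Cas9 and a guide to the first exon, and grown from single sorted cells into clones with frame-shifting changes in both alleles. Neither the labels nor the methods say which clone was sequenced, so changes peculiar to 1 clone cannot be told apart from an effect of losing *TIMELESS*. No age, stage or agent applies to these cultures, and the 3 libraries of a line are described by the study as independent biological replicates.

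Timeless and its partner Tipin form, with Claspin and AND-1 (encoded by *WDHD1*), the fork protection complex that travels with the replisome, keeps unwinding and synthesis together and helps pass checkpoint signals. The study asked how cells replicate through G-quadruplexes, stacked structures of guanine-rich DNA, and used RNA-seq because stalling at such structures can disturb the local chromatin state and the expression of nearby genes. A DT40 cell is a B cell that carries an immature B-cell programme and continues to diversify its immunoglobulin genes. Genes of B-cell identity, signalling, adhesion and metabolism are therefore described in turn.

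The guide is printed because it sets the site that was targeted, although the changes made there differ between clones. It is given as the cloning oligonucleotide from the supplementary material, with the 20 bases of the guide in capitals and the added vector overhang in lower case, and 65% of the guide's bases were G or C.
TIMELESS guide: caccgCGACGGCATCGAAGAGGGTC

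The libraries held between 15553647 and 24169380 expected counts in *timeless* and between 13806439 and 50160512 in WT. On a gene of 2 kb, 3 counts corresponded to between 0.0434 and 0.166 TPM (a transcript level scaled to gene length and library size), about the lowest detectable level. Within a line, the Spearman correlation between libraries was 0.967 to 0.988 in *timeless* and 0.983 to 0.996 in WT, and all pairs differed by more than sampling noise. *timeless* library 2 stood apart from the other *timeless* libraries on the first 2 principal components, and several results below are therefore also given without it. WT library 1 lay apart from the other WT libraries on the second component, at 25.2 against -5.91 and -5.16 for WT 2 and WT 3. The cells had the markers of B cells, with a summed level of 3041 to 3325 TPM over 21 markers in *timeless* and 2730 to 3089 TPM in WT, none of them below 0.1 TPM in every library. Both sums leaned on *JCHAIN*, with 712, 1530 and 802 TPM in *timeless* and 415, 956 and 732 TPM in WT. The *timeless* sum also leaned on *IRF8*, with 783, 418 and 1060 TPM against 126, 84.3 and 92.5 TPM in WT. The sums therefore do not show that the other markers kept their level. Of the 20 B-cell markers tested, 1 rose (5%) and 4 fell (20%), against 4.31% and 3.89% of all genes tested. Of 20 T-cell markers, *CD4*, *CTLA4*, *ZAP70*, *BCL11B*, *TCF7* and *UBASH3A* were below 0.1 TPM, and the summed level of 55.1 to 131.5 TPM in *timeless* and 160.4 to 223.4 TPM in WT was carried by *CD3D*. Summed levels were 51.4 to 71.5 TPM in *timeless* and 52.5 to 91.5 TPM in WT over 19 macrophage and granulocyte markers, 30.7 to 42.9 TPM in *timeless* and 31.7 to 36.6 TPM in WT over 14 erythroid and thrombocyte markers, and 14.2 to 17.3 TPM in *timeless* and 17 to 20 TPM in WT over 19 fibroblast and epithelial markers. In these 3 lists 5 markers (*CSF3R*, *MARCO*, *C1QB*, *C1QC* and *CATHL2*), 6 (*TAL1*, *HBA1*, *HBM*, *HBE1*, *HBBR* and *GP9*) and 10 (among them *COL3A1*, *DCN*, *POSTN* and *KRT18*) were below 0.1 TPM. The 4 lists held 3, 6, 3 and 3 tested markers in this order. *CYBB* and *CTSK* (33.33% of the second list) and *TBXAS1* (33.33% of the third) alone passed, against 4.31% of all genes tested, and all 3 rose. With each library left out in turn, *CYBB* kept its call in 6 of 6 fits, *CTSK* in 1 and *TBXAS1*, highest in *timeless* 2, in 3. Of the other tested macrophage and granulocyte markers, *MMP9*, *AVD* and *SPI1* were lower and *TIMD4* higher without passing (log2 -0.89, -0.80, -0.22 and 1.21). In such bulk samples fewer cells of a type and less RNA per cell cannot be told apart, and the part of other cells in the results was not tested.

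A gene is called altered where edgeR's quasi-likelihood test gave a Benjamini-Hochberg adjusted p under 0.05 over 11653 genes that averaged 1 TPM or more in *timeless* or WT. By this rule 8.2% of the genes tested were altered, 4.31% higher and 3.89% lower in *timeless*. The TPM values of the 2 genotypes did not overlap for 27.6% of the genes tested (11.8% higher and 15.7% lower). Shares within a gene list are to be read against these values, and the median log2 fold change of a list against 0.01 for all genes tested. For 1 gene alone, an exact permutation of 3 against 3 libraries has 0.1 as its smallest p, so the error model shared across genes carries every call. Each call was also refitted 6 times with 1 library left out. Of 155 altered genes that were followed one by one, all kept their direction in each refit in which they were tested, and those still called numbered 101, 140 and 99 without *timeless* 1, 2 and 3, and 100, 83 and 70 without WT 1, 2 and 3.

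*TIMELESS* itself had 24.3, 21.4 and 22.6 TPM in *timeless*, against 40.8, 34.2 and 48.4 TPM in WT. Every *timeless* library lay below every WT library, and the gene fell (log2 fold change -0.78, SE 0.15, edgeR adjusted p = 0.018), a call lost without *timeless* 1 or WT 3 (adjusted p up to 0.104). Small changes in the first exon leave most of the transcript in place, so that RNA is a weak check of the genotype. In addition, the mean of 20.2 TPM in *fancj*, against 38.1 TPM in *ddx11*, was as low as that in *timeless*. The *fancj* libraries were spread, at 30.5, 21.3 and 8.88 TPM, and the first lay above every *timeless* library. *TIMELESS* reads were also partly shared with other transcripts, since its counts were not whole in any of the 12 libraries. The other members of the fork protection complex did not pass the test. *TIPIN* had 39.9, 19.7 and 35.4 TPM in *timeless* and 35.8, 33.9 and 41.1 TPM in WT. *CLSPN*, which encodes Claspin, had 18.7, 12.1 and 15.6 TPM in *timeless* and 17.5, 14.3 and 18.6 TPM in WT. For *WDHD1* the values were 30.7, 16.9 and 18.8 TPM in *timeless* and 29.2, 23.7 and 27.9 TPM in WT. The ranges of the 2 genotypes overlapped for all 3 genes, with log2 fold changes of -0.14, -0.06 and -0.23 (adjusted p = 0.79, 0.9 and 0.57). The helicase genes disrupted in the other mutants, *DDX11* and *BRIP1* (the gene of FANCJ), likewise overlapped between *timeless* and WT, with log2 fold changes of 0.11 and -0.06 (adjusted p = 0.83 and 0.93).

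The 12 named genes that rose most were close to silent in WT, and several are best known from neurons or other cells than B cells. They were taken from the altered genes with no overlap between genotypes and an average that reached 5 TPM in *timeless* or WT. Their fold changes are therefore a description of how they were chosen. *IL1RL1*, the receptor of IL-33 in mammals, had 53.1, 5.31 and 41.1 TPM in *timeless*, against 0.04, 0.04 and 0 TPM in WT. The WT libraries held at most 2 reads, so *IL1RL1* was at least 408-fold higher in *timeless* when WT is set at 3 counts per library (adjusted p = 0.0019). *STAT4*, a transducer of IL-12 signals, had 52.7, 32.5 and 24.7 TPM in *timeless* and 0.48, 0.15 and 0.22 TPM in WT, a 153-fold difference (log2 7.26, SE 0.44, adjusted p = 0.00011). *NKX6-3*, a homeobox factor, had 85.3, 3.01 and 107 TPM in *timeless* and 0.45, 0.12 and 0.47 TPM in WT, so that its level in *timeless* library 2 was much below that in the other two. The gain of *NKX6-3* and of the proneural factor *NEUROD4* (log2 7.92 and 5.47, adjusted p = 0.011 and 0.02) thus varied between *timeless* populations. *NEUROD4* kept its call in 2 of the 6 refits and *NKX6-3* in 5.

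*ARPP21*, a cyclic AMP-regulated phosphoprotein, was the most even of these genes, with 33, 36.2 and 30.8 TPM in *timeless*, against 0.91, 0.88 and 1.13 TPM in WT (36.2-fold, log2 5.18, SE 0.20, adjusted p = 1.2e-05). *DCX*, a microtubule-binding protein of migrating neurons, had 11, 6.85 and 4.82 TPM in *timeless* and 0, 0.08 and 0 TPM in WT. *RAPGEF4*, an exchange factor for Rap GTPases that cyclic AMP activates, was highest in *timeless* library 2, with 2.78, 12.1 and 2.09 TPM in *timeless* and 0.34, 0.18 and 0.17 TPM in WT. *ANK1*, an ankyrin that links membrane proteins to spectrin, had a log2 fold change of 4.70 (adjusted p = 0.00066). *GPR142*, a G protein-coupled receptor, had 45.4, 17.8 and 52.4 TPM in *timeless* and 2.12, 1.49 and 2.04 TPM in WT, and its neighbour *BTBD17* 9.63, 17.5 and 12.8 TPM in *timeless* and 0.17, 0.18 and 0 TPM in WT. *XG*, the gene of a blood group antigen in human, had 6.02, 8.24 and 10.6 TPM in *timeless* and 0, 0.1 and 0.37 TPM in WT. The plot of these genes by library shows that all *timeless* points lie to the right of the WT points for the genes that rose.

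**Figure D1:**
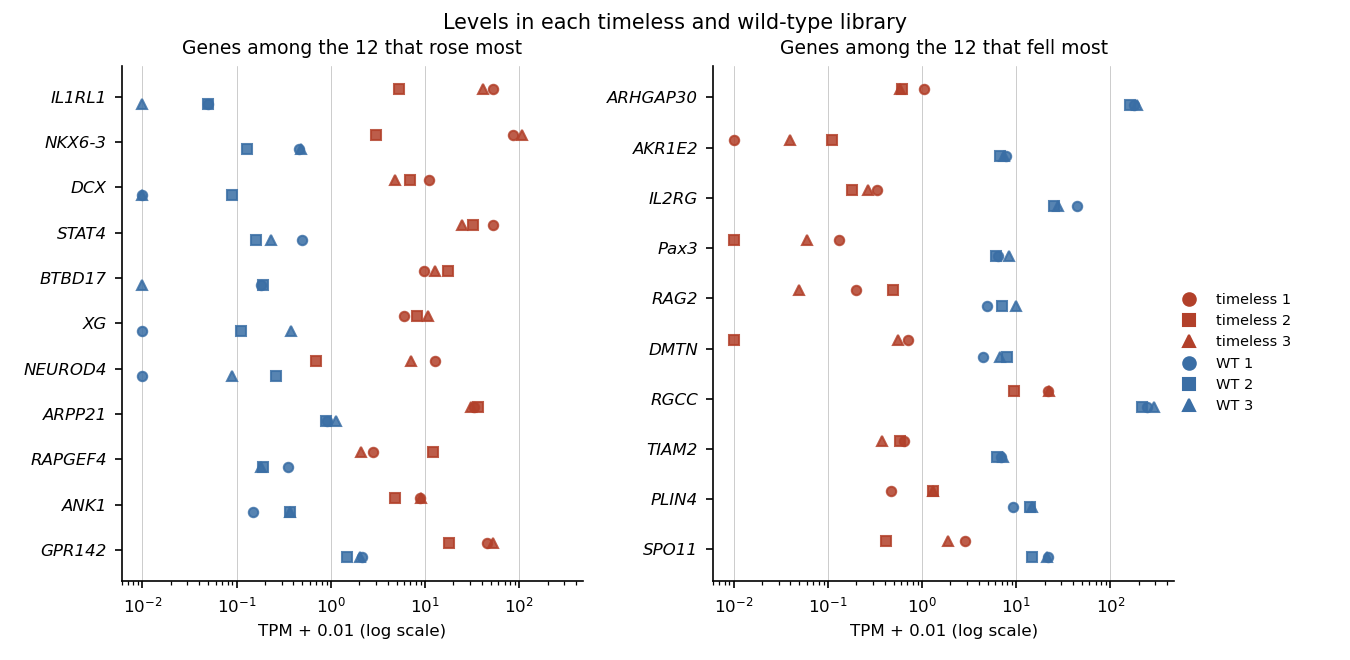
TPM plus 0.01 on a log axis in each of the 3 *timeless* libraries (red) and each of the 3 WT libraries (blue) for genes among the 12 that rose most (left) and the 12 that fell most (right), with a symbol for each replicate number. Genotypes do not overlap for any gene shown, as the choice of genes required, and *timeless* library 2 (red squares) is low for *IL1RL1*, *NKX6-3* and *NEUROD4* and high for *RAPGEF4*.

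The 12 named genes that fell most included the lymphocyte genes *IL2RG* and *RAG2*. *ARHGAP30*, a GTPase-activating protein of blood cells, had 1.05, 0.6 and 0.57 TPM in *timeless*, against 179, 160.5 and 192 TPM in WT. It had the lowest adjusted p of the 12 (227-fold lower, log2 -7.83, SE 0.25, adjusted p = 5.1e-06). *IL2RG*, the gamma chain that receptors for IL-2, IL-4, IL-7 and other cytokines have in common, had 0.32, 0.17 and 0.26 TPM in *timeless* and 44.3, 25.4 and 27.9 TPM in WT (119-fold lower, log2 -6.90, SE 0.34, adjusted p = 4.7e-05). For *ARHGAP30* and *IL2RG* the genotypes did not overlap, which the choice of these genes required. Both held their calls in all 6 refits.

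*RGCC*, a regulator of the cell cycle and of CDK1, had 21.8, 9.45 and 22.2 TPM in *timeless* and 245, 216 and 287 TPM in WT (log2 -3.73, adjusted p = 0.00061). *RAG2*, a subunit of the recombinase that joins antigen receptor gene segments, had 0.19, 0.48 and 0.04 TPM in *timeless* and 4.9, 7.02 and 10 TPM in WT. *Pax3*, a paired-box factor, held at most 3 counts in each *timeless* library and was at least 43.4-fold lower in *timeless*. Likewise *AKR1E2*, an aldo-keto reductase whose counts were partly shared with other transcripts, was at least 79-fold lower in *timeless*. *TIAM2*, an exchange factor for Rac, had 0.63, 0.58 and 0.37 TPM in *timeless* and 6.86, 6.25 and 7.21 TPM in WT. *PLIN4*, a lipid droplet coat protein, had 0.46, 1.3 and 1.3 TPM in *timeless* and 9.35, 14.1 and 14.6 TPM in WT. Others that fell were *DMTN*, an actin-bundling protein of the membrane skeleton (log2 -3.82), and *SPO11*, which makes the double-strand breaks of meiosis (log2 -3.40).

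The altered genes were unevenly placed in the genome. Of 686 tested genes whose names matched 1 chromosome of the RefSeq table for assembly GRCg7b, 190 (27.7%) fell and 12 (1.7%) rose, with a median log2 fold change of -0.565 (quartiles -0.799 and -0.284), or 0.676 of the WT level. On the other chromosomes 2.1% of 7676 genes fell and 3.6% rose, with a median of 0.01, and the medians of the 28 other chromosomes with at least 50 genes lay between -0.055 and 0.062. Most genes of that chromosome were lower: 86.2% of them had a log2 fold change below 0. The shift was similar in each *timeless* library: relative to the other chromosomes, its genes were at -0.553, -0.572 and -0.575 in *timeless* libraries, at 0.014, -0.002 and -0.028 in *ddx11* libraries, at 0.052, 0.075 and 0.13 in *fancj* libraries and at -0.033, 0.005 and 0.023 in WT libraries (log2, medians over 666 genes). Levels were taken against the WT mean, which for a WT library was that of the other WT libraries. DNA copy number of the lines was not tested, and genes of this chromosome are named as lying there wherever they occur below. *ARPP21* lies there although it rose, and *ARHGAP30*, *Pax3*, *MALT1* and *MMP11* were not matched to a chromosome. In all, 3291 of the genes tested had no match, of which 3% fell and 6.5% rose (median log2 fold change 0.124).

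Among the genes on that chromosome with the highest WT levels that fell were housekeeping genes. *NDUFA4*, a small subunit of cytochrome c oxidase, had 449, 344 and 433 TPM in *timeless*, against 715, 654 and 668 TPM in WT. *YWHAZ*, a 14-3-3 adaptor, had 365, 271 and 321 TPM in *timeless* and 608, 588 and 642 TPM in WT. Next came *ARF1* (a GTPase of vesicle budding), *SNRPD1* (a core protein of spliceosomal particles), *ABCF2* and *ZNF706*, with log2 fold changes of -0.68, -0.72, -0.83 and -0.81. Their adjusted p lay between 0.014 and 0.039, and all 6 lost the call in at least 2 of the 6 refits. When the genes matched to this chromosome were left out of the fit, 430 genes rose and 251 fell. Of the 753 altered genes not matched to it, 681 were called again. These 753 include genes with no matched chromosome, some of which may lie on it.

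**Figure D2:**
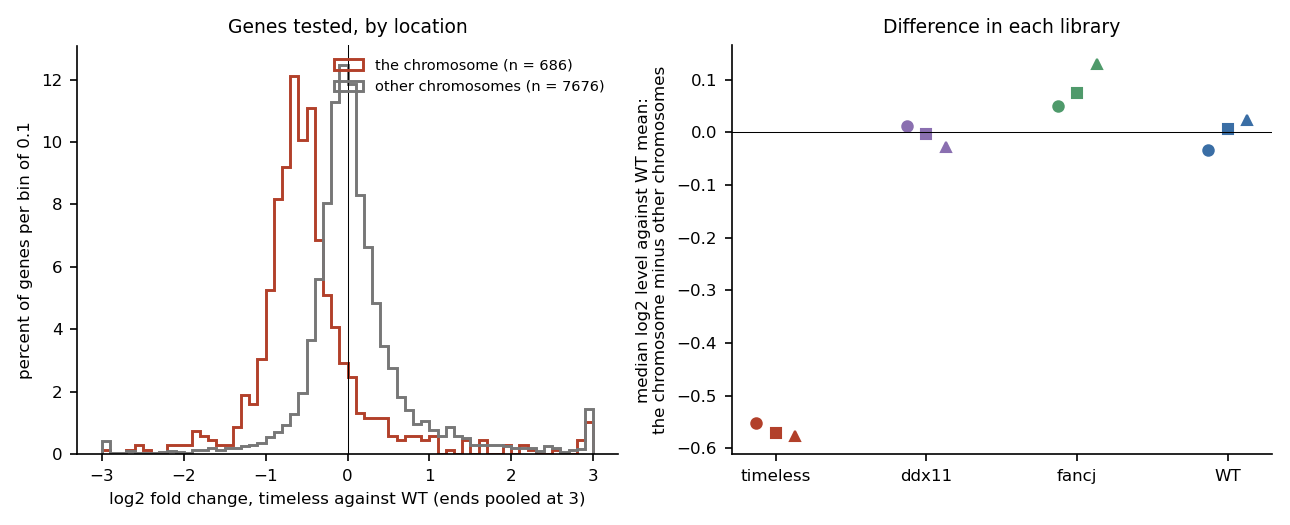
Left, the percent of genes per 0.1 bin of log2 fold change (*timeless* against WT) for the 686 genes on the chromosome (red) and the 7676 on other chromosomes (grey). Right, for each library of *timeless*, *ddx11*, *fancj* and WT, the median log2 level against the WT mean on the chromosome minus that on other chromosomes. For a WT library the WT mean is that of the other WT libraries. The 3 *timeless* libraries lie between -0.575 and -0.553 and the others between -0.033 and 0.13.

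B-cell identity was altered in part. Of 49 tested genes for B-cell transcription factors and their partners, 5 rose (*IRF8*, *RUNX3*, *BHLHE41*, *EGR1* and *NFIL3*) and 3 fell (*TOX*, *ID3* and *IKZF3*), 10.2% and 6.12% of the list, with a median log2 fold change of -0.02. *IRF8*, which acts with PU.1 in B-cell and myeloid development, had 783, 418 and 1060.0 TPM in *timeless*, against 126, 84.3 and 92.5 TPM in WT (7.89-fold higher, log2 2.98, SE 0.36, adjusted p = 0.0026). It was already among the well-expressed factors in WT, and its lowest *timeless* value was well above the highest WT value. *BHLHE41*, a repressor that is also part of the circadian clock, had 101, 144 and 104 TPM in *timeless* and 15.3, 45.1 and 34.3 TPM in WT (log2 1.93). *RUNX3*, a runt factor of lymphocytes, *EGR1*, an immediate early gene, and *NFIL3*, a basic leucine zipper repressor, rose at low levels, by 1.55, 1.97 and 1.08 on the log2 scale.

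*ID3*, an inhibitor of E proteins that is induced by antigen receptor and TGF-beta signals, had 6.83, 13.5 and 4.98 TPM in *timeless*, against 31.3, 46 and 70.6 TPM in WT (log2 -2.49, adjusted p = 0.01). *IKZF3*, the Ikaros family factor Aiolos, had 80.8, 45.1 and 51.9 TPM in *timeless* and 119, 119 and 100.2 TPM in WT (log2 -0.87, adjusted p = 0.033). *TOX*, a high mobility group factor that lies on the chromosome described above, fell by 1.95 on the log2 scale, more than the chromosome's median shift. *IRF8*, *TOX* and *ID3* held their calls in all 6 refits, *NFIL3* held it in none, and without *timeless* library 2 4 members were higher and 5 lower. The number that fell was 7 with DESeq2's Wald test, 7 with no filter and 5 with the replicate block.

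The factors that define the B lineage stayed expressed and did not pass the main test, although some passed in other fits. *PAX5*, the B-lineage commitment factor, had 73.4, 26.4 and 56.3 TPM in *timeless*, against 162, 79.5 and 101 TPM in WT (log2 -1.20, adjusted p = 0.1). *EBF1*, an early B-cell factor, had 16.5, 9.05 and 12.2 TPM in *timeless* and 28.5, 14.8 and 14.6 TPM in WT. All *timeless* values of *PAX5* were below the WT values and those of *EBF1* overlapped them, with a wide spread within each line. *PAX5* was lower with the replicate block (adjusted p = 0.0069), with DESeq2's Wald test (0.0145) and with no filter on low values (0.028), and passed in none of the 6 refits that left out a library. *BCL6*, the germinal centre repressor, had 48.9, 16.9 and 45 TPM in *timeless* and 95.5, 68.1 and 90.3 TPM in WT (log2 -1.12, adjusted p = 0.09, and 0.027 without *timeless* library 2). It too was lower with the block (adjusted p = 0.016), DESeq2 (0.015) and no filter (0.025). The coactivator *POU2AF1* overlapped between genotypes, with 329, 257 and 244 TPM in *timeless* and 370.0, 257 and 249.7 TPM in WT. *PRDM1*, the plasma cell factor, had 6.25, 3.76 and 3.89 TPM in *timeless* and 1.27, 9.4 and 8.94 TPM in WT, and *MYC* 1093, 1794 and 1120.3 TPM in *timeless* and 1562, 1886 and 1657 TPM in WT. *MYC*, which is very abundant in these lymphoma cells, lies on the chromosome described above. Among all 20 tested B-cell markers, 1 rose (*IRF8*, 5%) and 4 fell (20%), among them *CXCR4*. The shares of all genes tested were 4.31% and 3.89%. *VPREB3*, a chaperone of immunoglobulin chains, had 67.7, 7.52 and 28.7 TPM in *timeless* and 315, 212 and 288 TPM in WT (log2 -2.93, adjusted p = 0.021), and its *timeless* values spanned from 7.52 to 67.7 TPM.

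Of the genes that rearrange and diversify immunoglobulin loci, *RAG2* and *UNG* fell and held their calls in all 6 refits, and *DNTT* rose. *UNG*, the uracil glycosylase that removes uracil from DNA, had 109, 101 and 71.5 TPM in *timeless*, against 266, 179 and 254 TPM in WT (log2 -1.26, SE 0.19, adjusted p = 0.0073). The genotypes did not overlap, and *UNG* fell by less than *RAG2* on the log2 scale. *DNTT*, the terminal transferase that adds nucleotides at coding joints, had 14.5, 7.96 and 8.64 TPM in *timeless*, against 4.12, 1.1 and 0.99 TPM in WT (log2 2.51, adjusted p = 0.026), and kept its call in 2 of the 6 refits.

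Signalling from the B-cell receptor showed 1 large gain. *FYN*, a Src family kinase, had 26.1, 36 and 28.6 TPM in *timeless*, against 3.95, 3.01 and 2.6 TPM in WT (10.2-fold higher, log2 3.35, SE 0.24, adjusted p = 0.0002). Of 51 tested members *FYN* alone rose, and *MALT1*, *NFATC1*, *BANK1* and *CD81* fell, with a median log2 fold change of -0.12. The number that fell depended on the fit, at 9 with DESeq2's Wald test (where 3 rose), 9 with no filter on low values, 7 with the replicate block, 2 with all 12 libraries in the fit, and 1 to 4 when a library was left out. *MALT1*, the paracaspase that links the receptor to NF-kB, had 16, 11.7 and 10.8 TPM in *timeless* and 35.2, 27.1 and 31.9 TPM in WT (log2 -1.23, adjusted p = 0.0047). *BANK1*, an adaptor of B-cell calcium signals, and *CD81*, a tetraspanin, fell by 1.13 and 0.89 on the log2 scale. *NFATC1*, a calcium-regulated factor on the chromosome described above, fell by 1.71 at a level of 2.39 to 4.33 TPM in WT. *FYN* and *MALT1* held their calls in all 6 refits, and each of the other 3 lost it in at least 4.

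The core of the receptor pathway did not pass the test. *BTK* had 223, 166 and 170.1 TPM in *timeless* and 196, 152 and 179 TPM in WT, with a log2 fold change of 0.14 (SE 0.16, adjusted p = 0.66). The receptor subunit *CD79B* had 254, 192 and 161 TPM in *timeless* and 461, 205 and 178 TPM in WT, and the adaptor *BLNK* 287, 105 and 202 TPM in *timeless* and 235, 137 and 146 TPM in WT. *LYN*, a Src family kinase upstream of this receptor whose gene lies on the chromosome described above, had 59, 66.1 and 27.4 TPM in *timeless* and 203, 64.3 and 69.2 TPM in WT and was highest in WT library 1 (adjusted p = 0.22). The genotypes overlapped for each of these genes.

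**Figure D3:**
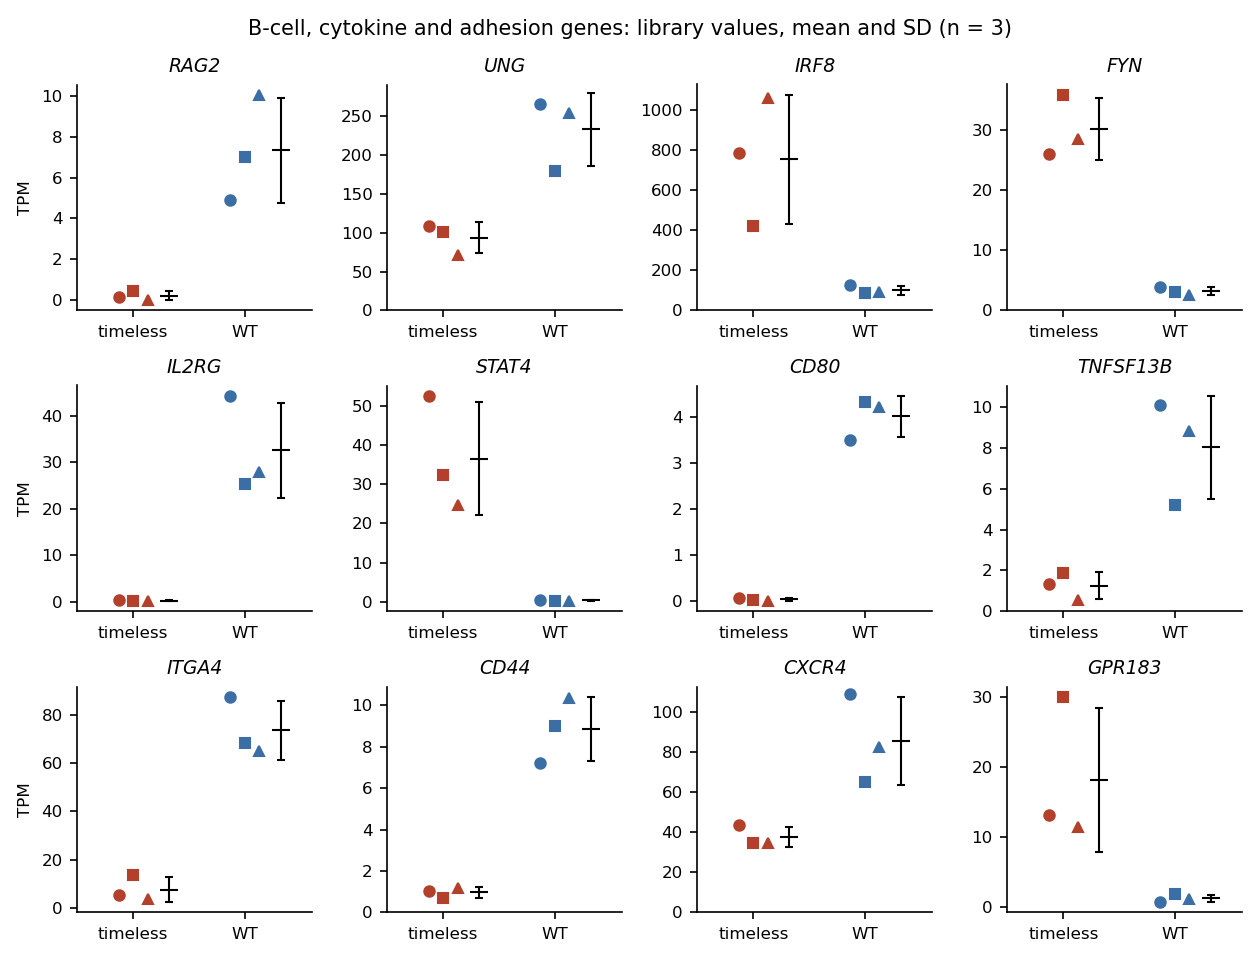
TPM (axis from 0) in each *timeless* (red) and WT (blue) library for 12 genes of immunoglobulin diversification, B-cell identity, cytokine signalling, co-stimulation and adhesion, with the mean and SD (n = 3) beside the points. *IRF8*, *FYN*, *STAT4* and *GPR183* were higher and the other 8 lower in *timeless*, with no overlap between genotypes.

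Antigen presentation held the largest share of genes that rose among the lists of functions, the cell type marker lists left aside. Of 16 tested members 5 rose (*BLB1*, *BLB2*, *BF2*, *CTSB* and *NLRC5*), 31.25% of those tested, and 1 fell (*CD80*), with a median log2 fold change of 0.43. *BLB1*, an MHC class II beta chain, had 18.6, 32.5 and 16 TPM in *timeless*, against 3.78, 5.32 and 2.76 TPM in WT. *BLB2*, another such chain, had 76.8, 108 and 56.6 TPM in *timeless*, against 23.3, 16.4 and 6.91 TPM in WT. Both genes were higher in every *timeless* library (log2 2.53 and 2.43, adjusted p = 0.0067 and 0.012), as was the class I gene *BF2* at a low level (log2 2.58, adjusted p = 0.031), although *BF2* lost its call in all 6 refits. These 3 genes are close copies of others, their counts were not whole in any library, and how their reads were divided is uncertain. *CTSB*, a lysosomal protease whose counts were whole, had 59, 133 and 56.2 TPM in *timeless* and 17, 21.2 and 19.8 TPM in WT (log2 2.17, adjusted p = 0.0082). *NLRC5*, an activator of class I genes in mammals, rose through *timeless* library 2, with 0.42, 6.85 and 0.57 TPM in *timeless* and 0.05, 0.12 and 0.1 TPM in WT. Without that library it was below the limit for testing, and 3 members were then higher, as also without WT 2 or WT 3. *CD80*, the co-stimulatory ligand of *CD28*, had 0.07, 0.02 and 0 TPM in *timeless*, against 3.5, 4.31 and 4.22 TPM in WT (log2 -6.77, adjusted p = 0.00066).

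Cytokine receptors and their STAT factors changed in both directions. Of 37 tested members 3 rose (*IL1RL1*, *IL18R1* and *STAT4*) and 3 fell (*IL2RG*, *SOCS5* and *SOCS6*), with a median log2 fold change of 0.19. *IL18R1*, a subunit of the IL-18 receptor that is the neighbour of *IL1RL1* in the gene table, had 2.97, 0.18 and 3.09 TPM in *timeless*, against 0, 0.01 and 0 TPM in WT, and was at least 30.4-fold higher. As with *IL1RL1*, its level in *timeless* library 2 was far below that in the other two. *SOCS5*, a suppressor of cytokine signalling, fell by 0.98 on the log2 scale, and *SOCS6*, which lies on the chromosome described above, by 0.90. *STAT5B*, a factor downstream of the common gamma chain, had 26.4, 46.1 and 27 TPM in *timeless* and 75.6, 57.2 and 67 TPM in WT (adjusted p = 0.052), and *JAK3*, the kinase bound to that chain, 1.46, 3.15 and 1.27 TPM in *timeless* and 0.86, 0.46 and 0.25 TPM in WT (adjusted p = 0.055). Neither passed the test, although the genotypes did not overlap. With the replicate block both passed (edgeR adjusted p = 0.043 for *STAT5B* and 0.032 for *JAK3*), and each passed in 1 of the 6 refits.

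In the TNF and NF-kB list 2 of 50 tested members rose and 2 fell, close to the shares of all genes. *TNFRSF25*, a death domain receptor, had 43.5, 61.7 and 45.8 TPM in *timeless*, against 13, 13.2 and 14.3 TPM in WT (log2 1.97, SE 0.20, adjusted p = 0.0011). *TNFSF13B*, which encodes the B-cell survival factor BAFF, had 1.32, 1.88 and 0.58 TPM in *timeless*, against 10.1, 5.21 and 8.79 TPM in WT (log2 -2.61, adjusted p = 0.0085). Both calls held in all 6 refits. The BAFF receptor *TNFRSF13C*, with 5.59, 4.09 and 2.92 TPM in *timeless* and 17.8, 6.37 and 5.84 TPM in WT, did not pass the test. *TLR4*, the receptor for lipopolysaccharide, was highest in *timeless* library 2 and close to 0 in WT, with 0.82, 6.08 and 1.46 TPM in *timeless* and 0, 0.09 and 0.02 TPM in WT, and *RIPK1*, on the chromosome described above, fell by 0.73.

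Growth factor and developmental pathways held changes in both directions. In the receptor tyrosine kinase and MAPK list, *FLT1* (a VEGF receptor) and *DUSP5* (a phosphatase of ERK) rose and *RPS6KA2* (a ribosomal S6 kinase) fell among 46 tested members, with log2 fold changes of 2.08, 2.27 and -2.18. These made 4.35% higher and 2.17% lower, against 4.31% and 3.89% of all genes tested. In the WNT, Notch, TGF-beta and Hedgehog list, 4 of 45 tested members rose and 4 fell, 8.89% each. *SMAD3*, a transducer of TGF-beta signals, had 0.38, 0.98 and 0.2 TPM in *timeless*, against 4.41, 3.41 and 3.57 TPM in WT (log2 -2.86, adjusted p = 0.016), whereas the inhibitory *SMAD6* had 13.9, 13.7 and 12.8 TPM in *timeless* and 7.48, 6.76 and 7.69 TPM in WT (log2 0.95, adjusted p = 0.014). The type I receptor *ACVR1* fell by 0.59 on the log2 scale. Of the Notch genes, the ligand *JAG2* and the target *HEY1*, which lies on the chromosome described above, fell (log2 -1.41 and -1.72) and *LFNG*, a glycosyltransferase that modifies Notch, rose (log2 1.26). The WNT receptor genes *FZD7* and *LGR4* rose at low levels (log2 2.50 and 1.93). None of these 11 genes held its call in all 6 refits.

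Several adhesion receptors fell, as did the chemokine receptor *CXCR4*. Of 28 tested integrins, cadherins and other adhesion receptors 4 fell (*ITGA4*, *CD44*, *BVES* and *DSCAM*), 14.29% of those tested, and 2 rose (*CDH8* and *CD5*), with a median log2 fold change of 0.39. *ITGA4*, the alpha chain of the integrin that binds VCAM-1 and fibronectin, had 5.58, 13.7 and 3.86 TPM in *timeless*, against 87.4, 68.3 and 64.9 TPM in WT (9.17-fold lower, log2 -3.20, SE 0.43, adjusted p = 0.0043). *CD44*, the hyaluronan receptor, had 1.04, 0.68 and 1.17 TPM in *timeless* and 7.22, 8.99 and 10.3 TPM in WT (log2 -3.13, adjusted p = 0.00066). *BVES*, a Popeye domain protein of cell contacts, had 8.61, 10.5 and 8.7 TPM in *timeless* and 83.6, 66.9 and 74 TPM in WT (log2 -2.95, adjusted p = 0.00011). All 4 genes that fell did so in each of the 6 refits, including *DSCAM*, a neuronal immunoglobulin superfamily receptor (log2 -1.77, adjusted p = 0.0047). *CDH8*, a cadherin with at most 2 counts in a WT library, rose and was at least 19.9-fold higher in *timeless*. *CD5*, a lymphocyte receptor that dampens antigen receptor signals, had 27.9, 17.6 and 22.5 TPM in *timeless* and 11.9, 3.94 and 6.26 TPM in WT (log2 1.70, adjusted p = 0.028), and kept its call in 2 of the 6 refits.

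Of 40 tested genes of chemokine receptors and migration 1 rose and 2 fell. *CXCR4*, the receptor for CXCL12, had 43.6, 34.7 and 34.6 TPM in *timeless*, against 109, 65 and 82.6 TPM in WT (log2 -1.12, adjusted p = 0.012). *GPR183*, an oxysterol receptor that positions B cells in lymphoid follicles, had 13, 30 and 11.4 TPM in *timeless*, against 0.69, 1.76 and 1.11 TPM in WT (15.1-fold higher, log2 3.92, adjusted p = 0.0033). These receptors thus moved in opposite directions, and both calls held in all 6 refits. *CXCR5*, the receptor for CXCL13, had 157, 98.3 and 104 TPM in *timeless* and 144, 122 and 118 TPM in WT and did not pass. *ELMO1*, which activates Rac and lies on the chromosome described above, fell by 0.88.

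The actin and intermediate filament list had 8 genes that rose and 5 that fell among 84 tested, with a median log2 fold change of 0.05. The ankyrins *ANK1* and *ANK2* rose (*ANK2* by 1.64), as did the myosin *MYO18B* (by 1.85) and the formin *FHOD1* (by 1.52). *LCP1*, the leukocyte actin bundler L-plastin, had 2.41, 0.92 and 2.84 TPM in *timeless* and 12.6, 9.64 and 11.6 TPM in WT (log2 -2.39, adjusted p = 0.0086). Each of these 5 calls held in all 6 refits. *EVL*, an actin polymerase of the Ena/VASP family, and *ACTN1*, an alpha-actinin, fell by 0.86 and 1.54 and lost their calls in 2 and 4 of the refits. Of 34 tested matrix genes, a list altered at about the rate of all genes tested, *HSPG2* (perlecan) rose by 4.10 and held its call throughout, and *MMP11* and *ADAMTS1*, secreted metalloproteases, fell by 2.75 and 1.59.

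**Figure D4:**
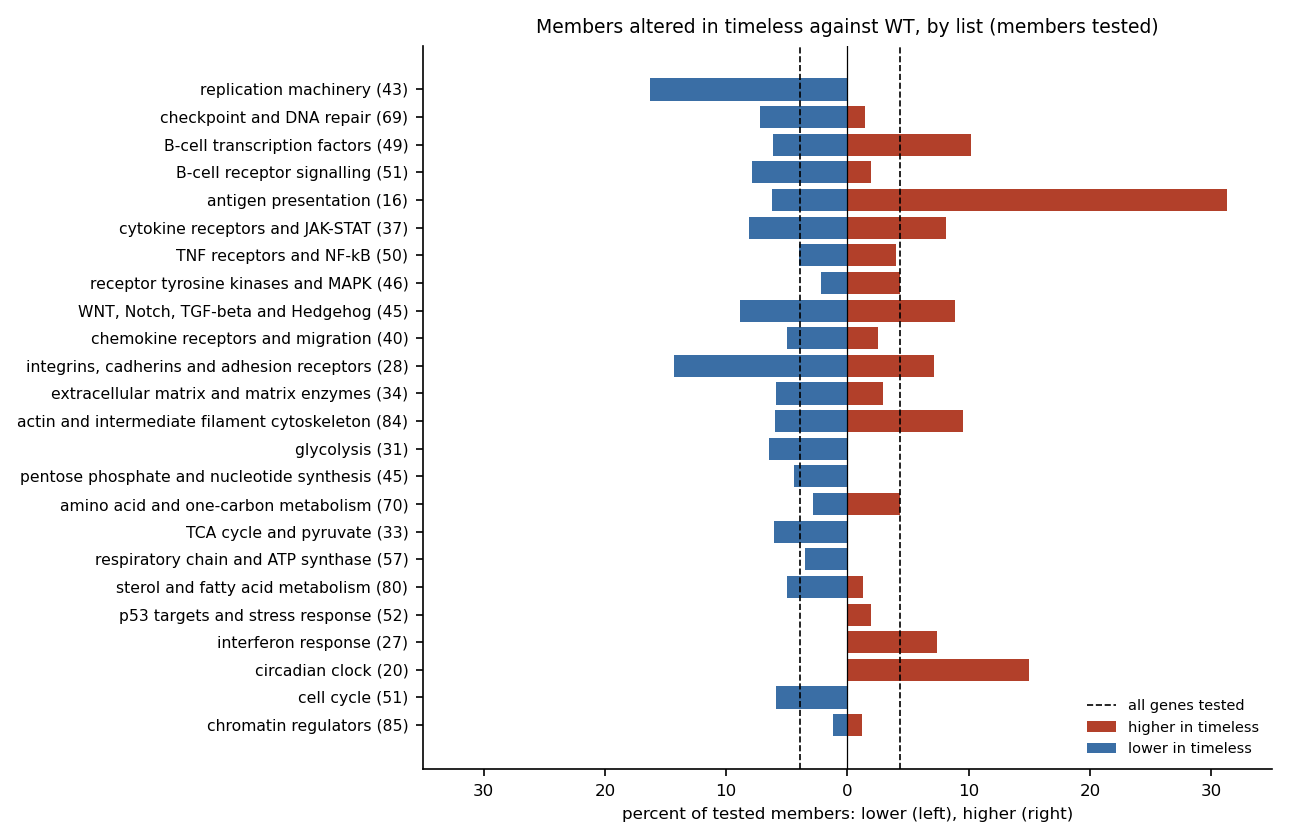
Percent of the tested members of each list shown (number tested in brackets) called higher (right, red) or lower (left, blue) in *timeless*, with the shares of all genes tested as dashed lines at 4.31% and 3.89%. Antigen presentation has the largest share higher (31.25%), on few genes.

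Of the tested members of the metabolic lists, 2.86% to 6.45% fell and 0% to 4.29% rose. The shares of all genes tested were 3.89% and 4.31%. In glycolysis 2 of 31 tested members fell and none rose. *LDHA*, lactate dehydrogenase A, had 561, 455 and 540.4 TPM in *timeless*, against 804, 913 and 886 TPM in WT (log2 -0.68, adjusted p = 0.045), and *PFKFB2*, an enzyme that sets the pace of glycolysis, 12.9, 10.2 and 8.78 TPM in *timeless* and 18.9, 17.6 and 19.1 TPM in WT (log2 -0.75, adjusted p = 0.021). The genotypes did not overlap, but each call was lost in at least 4 of the 6 refits. In the pentose phosphate and nucleotide list *TK1*, thymidine kinase, fell by 0.89 and *NT5C3A*, a nucleotidase on the chromosome described above, by 0.82, among 45 tested. The TCA cycle genes that fell, *SDHA* and *FH* (2 of 33), both lie on that chromosome (log2 -0.83 and -0.83). In the sterol and fatty acid list 1 of 80 tested members rose and 4 fell. *MGLL*, monoacylglycerol lipase, had 5.68, 5.89 and 4.65 TPM in *timeless* and 1.23, 0.88 and 1.39 TPM in WT (log2 2.28, adjusted p = 0.0026). Those that fell were *FABP5* and *SQLE* on the chromosome (log2 -1.26 and -0.82), and *SOAT1* and *TM7SF2*, enzymes of cholesterol esterification and synthesis, elsewhere (log2 -1.27 and -0.76).

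Among the metabolic lists, that of amino acid and one-carbon metabolism had the highest median (0.36 over 70 tested). Of its members, some of which have other roles, 3 rose and 2 fell. *DDIT4*, an inhibitor of mTORC1 also called REDD1, had 137, 148 and 98.8 TPM in *timeless*, against 39.3, 45.6 and 36.6 TPM in WT (log2 1.71, SE 0.20, adjusted p = 0.0022). *CKB*, brain creatine kinase, had 14.7, 21.9 and 12.7 TPM in *timeless* and 3.51, 3.31 and 5.35 TPM in WT (log2 2.08, adjusted p = 0.0053). *ARG2*, mitochondrial arginase, had 1.18, 0.84 and 0.95 TPM in *timeless*, against 3.8, 7.58 and 7.73 TPM in WT (log2 -2.63, adjusted p = 0.0072). These 3 calls and that of *VLDLR*, a lipoprotein receptor (log2 2.86), held in all 6 refits, whereas *TRIB1*, a pseudokinase gene on the chromosome described above (log2 -1.70), held its call in 1.

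RNA from the mitochondrial genome was higher in *timeless*, while nuclear genes of the same complexes were not. This set was put together after its values had been seen, so its counts are a description only. Of the 12 protein genes of the mitochondrial genome found by name in the files, 11 rose. Log2 fold changes ran from 0.94 (*ND3*, the 1 gene that did not pass, adjusted p = 0.066) to 1.77 (*ATP6*, adjusted p = 0.022). *COX1*, a catalytic subunit of cytochrome c oxidase, had 8075, 14790.1 and 13496 TPM in *timeless*, against 5301, 3902 and 5091 TPM in WT. *ND5*, a subunit of complex I, had 2031, 4126 and 3439 TPM in *timeless*, against 1071, 881 and 1155 TPM in WT (log2 1.71, SE 0.30, adjusted p = 0.013). Neither gene overlapped between genotypes, nor did any of the 12. Together the 12 genes made up 4.09%, 8.36% and 6.46% of all TPM in *timeless* libraries, against 2.59%, 1.91% and 2.56% in WT libraries, and 2.38% to 3.68% in *ddx11* and *fancj* libraries. The nuclear list of 57 tested genes of the respiratory chain and ATP synthase had a median log2 fold change of 0.00 (range -0.82 to 0.33) with none higher, and the 2 that fell, *NDUFV2* and *NDUFA4*, lie on the chromosome described above.

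The mitochondrial calls depended on WT 2 and WT 3. Without *timeless* 1, 2 and 3 there were 12, 11 and 6 genes higher, and without WT 1 there were 5, but none passed without WT 2 or WT 3, with log2 fold changes still between 0.85 and 1.84. With the replicate block, 8 of the 12 were called against WT. Against the mean of *ddx11* and *fancj*, 6 of the 12 were higher in *timeless* by the same edgeR test. Set against each mutant alone, only *ND5* passed (adjusted p = 0.036 against *ddx11* and 0.03 against *fancj*). The others of these 6 had adjusted p from 0.058 to 0.11 against *ddx11* and from 0.051 to 0.084 against *fancj*. *CHCHD10*, a nuclear gene for a protein of the mitochondrial intermembrane space, went the other way, with 314, 310.5 and 334 TPM in *timeless*, against 1333, 922 and 916 TPM in WT (log2 -1.66, adjusted p = 0.0022). It was chosen after its values were seen.

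**Figure D5:**
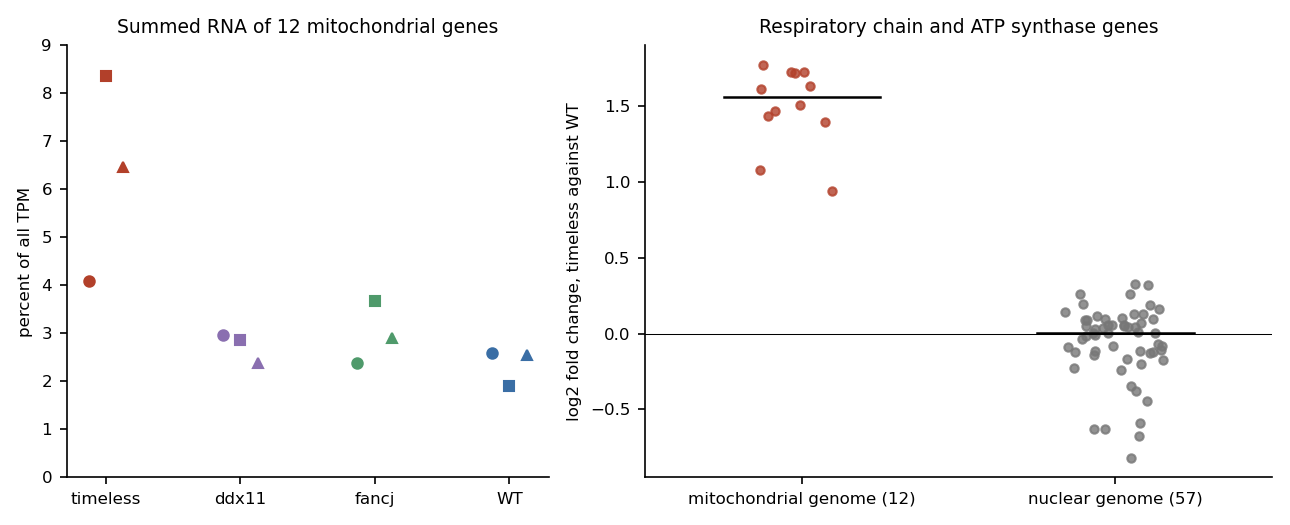
Left, the summed TPM of 12 protein genes of the mitochondrial genome as a percent of all TPM in each *timeless*, *ddx11*, *fancj* and WT library (axis from 0). Right, log2 fold changes (*timeless* against WT) of those 12 genes and of 57 nuclear genes of the respiratory chain and ATP synthase, with a bar at each median. Every *timeless* library, from 4.09% to 8.36%, lies above every other library, and the mitochondrial genes lie above the nuclear ones.

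Some replication genes outside the fork protection complex fell. Of 43 tested genes of the replication machinery 7 fell (16.28%) and none rose, with a median log2 fold change of -0.38. *MCM4*, *DSCC1* and *GMNN* lie on the chromosome described above, and *CDT1*, *MCM3*, *GINS1* and *PRIM2* elsewhere. *MCM4*, a subunit of the replicative helicase, had 132, 95.6 and 85.2 TPM in *timeless*, against 264, 211 and 255 TPM in WT (log2 -1.17, adjusted p = 0.0063). *MCM3*, a subunit of the same helicase on another chromosome, had 170.0, 126 and 131 TPM in *timeless* and 258, 223 and 251 TPM in WT (log2 -0.72, adjusted p = 0.026). *CDT1*, which loads the helicase, had 146, 122 and 125 TPM in *timeless* and 219.6, 204 and 236 TPM in WT (log2 -0.68, adjusted p = 0.022). No genotype ranges overlapped for these genes, and log2 fold changes of -0.76 and -0.74 were found for *GINS1*, part of the CMG helicase, and *PRIM2*, the large primase subunit. *MCM4* held its call in all 6 refits, and each of the other 6 lost it in at least 3, with adjusted p up to 0.155.

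Among 69 tested genes of checkpoints and repair 5 fell and 1 rose, with a median of -0.24. *CHEK1*, the kinase that the fork protection complex helps activate, had 195, 154 and 169 TPM in *timeless*, against 317, 241 and 314 TPM in WT (log2 -0.69, adjusted p = 0.032), a call kept in 1 refit. *RAD54L* and *RAD54B*, motor proteins of homologous recombination, fell by 0.84 and 1.79, and *PRKDC*, the kinase of end joining, by 0.87. *RAD54B* and *PRKDC* lie on the chromosome described above. *FANCM*, a translocase of the Fanconi anaemia pathway, had 11, 10.1 and 10.2 TPM in *timeless* and 5.71, 7.44 and 7.46 TPM in WT (log2 0.65, adjusted p = 0.045). *RAD54L* and *FANCM* lost their calls in every refit.

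Of 51 tested cell cycle genes 3 fell and none rose, with a median of -0.35. *E2F1*, a factor that drives S phase genes, had 167, 194 and 141 TPM in *timeless*, against 340.2, 272 and 311 TPM in WT (log2 -0.81, adjusted p = 0.023). *CCNE2*, cyclin E2, on the chromosome described above, fell by 1.23 (adjusted p = 0.0085) and held its call throughout. *CDKN2B*, a CDK inhibitor, fell by 2.00. It kept its call in 2 of the 6 refits, and *E2F1* kept its call in 1. Without *timeless* library 2, 5 members fell.

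In the stress and interferon lists 1.92% and 7.41% of tested members rose and none fell. Of all genes tested, 4.31% rose and 3.89% fell. Of 52 tested p53 targets and stress genes 1 rose and none fell by edgeR, and 6 rose by DESeq2's Wald test. *BCL2*, the inhibitor of apoptosis, had 8.43, 8.87 and 11.6 TPM in *timeless*, against 1.85, 2.35 and 2.28 TPM in WT (log2 2.22, SE 0.26, adjusted p = 0.0025), although it lies on the chromosome whose genes were mostly lower. Of 27 tested interferon response genes *LY6E*, which lies there too, and *IRF5* rose (log2 1.98 and 1.10), and *IRF5* lost its call in every refit. In the circadian clock list, named because Timeless takes its name from a clock gene of the fly, 3 of 20 tested members (15%) rose, among them *BHLHE41* and *NFIL3*. None held its call in all 6 refits. Of 85 tested chromatin regulators *CHD5*, a remodelling ATPase, rose by 0.80 and *SETD2*, the histone H3K36 methyltransferase on the chromosome described above, fell by 0.77.

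Several of the genes that changed most were neighbours. Away from the chromosome described above and the mitochondrial genome, 4316 pairs of tested genes were next to each other in the order of the GRCg7b gene table, and 412 of these held at least 1 altered gene. Both genes rose in 13 pairs, both fell in 11 and they went in opposite directions in 1. In most of the 412 pairs only 1 gene was altered. Of single genes tested on the other chromosomes, 3.6% rose and 2.1% fell. How many such pairs unlinked genes would give was not tested. The pairs that rose included *IL1RL1* with *IL18R1*, *NKX6-3* with *ANK1*, and the run of *BTBD17*, *GPR142* and *GPRC5C*. *GPRC5C*, an orphan receptor, had 19.3, 24.1 and 25.6 TPM in *timeless*, against 0.58, 2.94 and 3.01 TPM in WT (log2 3.40, adjusted p = 0.0055). Those that fell included *B3GNT5* with *LAMP3*, *BANK1* with *SLC39A8*, *CDON* with *CHEK1*, *SOAT1* with *ABL2*, and the runs of *RBM38*, *RAE1* and *SPO11* and of *POMK*, *SMIM19* and *SLC20A2*. *LAMP3*, a lysosomal membrane protein, had 1.03, 1.06 and 1.47 TPM in *timeless*, against 8.86, 8.07 and 9.54 TPM in WT (log2 -2.82, adjusted p = 0.0012), and *POMK*, a kinase of dystroglycan glycosylation, 7.92, 3.56 and 4.69 TPM in *timeless* and 28.6, 17 and 25.3 TPM in WT (log2 -2.08, adjusted p = 0.005). These pairs were found after the values were seen. Whether reads were counted by strand is not given in the sources used here, so overlap between neighbours cannot be told apart from shared changes.

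The named genes were also set against the other mutants. A second edgeR fit compared the 3 *timeless* libraries with the mean of the 3 *ddx11* and 3 *fancj* libraries, without WT, and 2.72% of the 12209 genes in it passed (1.68% with more and 1.04% with less RNA in *timeless*). *IL1RL1*, *STAT4*, *BTBD17* and *NEUROD4* were higher in *timeless* in this fit (log2 3.94, 4.71, 3.25 and 6.16, adjusted p = 0.015, 0.0014, 0.0046 and 0.014). *STAT4* averaged 36.6 ± 14.5 TPM in *timeless*, against 0.943 TPM in *ddx11* and 2.43 TPM in *fancj* (SD, n = 3). *IRF8* was also higher than in the other mutants (log2 1.71, adjusted p = 0.018), as was *TNFRSF25* (log2 1.70, adjusted p = 0.003). So were *HSPG2* and *FHOD1* (log2 6.74 and 1.61, adjusted p = 0.00055 and 0.003). *PRDM1*, *GPR142*, *IL18R1*, *NKX6-3* and *LFNG* passed as higher too (adjusted p = 0.0115, 0.0215, 0.0249, 0.0438 and 0.046). Set against each mutant alone, *STAT4*, *TNFRSF25*, *HSPG2* and *FHOD1* passed in both comparisons. *IL1RL1*, *BTBD17* and *NEUROD4* passed against *ddx11* only (adjusted p = 0.074, 0.17 and 0.078 against *fancj*). The same held for *PRDM1*, *GPR142* and *NKX6-3* (adjusted p = 0.0636, 0.837 and 0.533 against *fancj*). *IRF8* and *LFNG* passed against *fancj* only (adjusted p = 0.085 and 0.19 against *ddx11*), and *IL18R1* passed against neither alone. Among the genes lower in *timeless* than the mean of both were *AKR1E2*, *CD80*, *ARHGAP30*, *IL2RG*, *RAG2*, *PLIN4*, *CXCR4*, *ARG2* and *CDKN2B*, with adjusted p from 0.0011 to 0.024. Of these *AKR1E2*, *CD80*, *RAG2*, *PLIN4*, *ARG2* and *CDKN2B* passed against each mutant alone. *ARHGAP30*, *IL2RG* and *CXCR4* passed against *ddx11* only (adjusted p = 0.125, 0.337 and 0.075 against *fancj*). *ARHGAP30* was at 0.74 TPM in *timeless*, 97.7 TPM in *ddx11* and 1.96 TPM in *fancj*. *IL2RG* was at 0.25 TPM in *timeless*, 24.5 TPM in *ddx11* and 0.517 TPM in *fancj*, so both genes were low in *fancj* too.

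Some others did not pass this test. *ARPP21* averaged 33.4 TPM in *timeless*, 23.7 TPM in *ddx11* and 36.7 TPM in *fancj*, against 0.973 TPM in WT (*timeless* against the other mutants, log2 0.29, SE 0.19, adjusted p = 0.52). *ITGA4* averaged 7.7 TPM in *timeless*, 18.9 TPM in *ddx11* and 5.82 TPM in *fancj*, against 73.5 TPM in WT (log2 -0.28, SE 0.50, adjusted p = 0.89). Nor did *BVES* (log2 0.45, SE 0.24, adjusted p = 0.41) and *FYN* (log2 0.87, SE 0.29, adjusted p = 0.15) pass it, although *BVES* was higher than in *fancj* alone (log2 1.66, adjusted p = 0.017). *DSCAM* lay between the other mutants, at 9.39 TPM in *timeless*, 21.6 TPM in *ddx11* and 0.57 TPM in *fancj*, against 33.3 TPM in WT. *DSCAM* did pass as higher than the mean of both (log2 1.54, adjusted p = 0.0042). Set against each alone, it was higher than in *fancj* (log2 4.16, adjusted p = 0.00041) and did not pass against *ddx11* (log2 -1.08, adjusted p = 0.053). *CD5*, although higher than in WT, was lower than in the other mutants (log2 -1.39, adjusted p = 0.021), and passed against each alone. *fancj* library 3 correlated least with its line (Spearman correlation 0.931 at the lowest), and without it 337 genes were higher and 326 lower.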

How the data were processed

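Poly(A) RNA-seq of 12 DT40 cultures was used, 3 each of TIMELESS KO, DDX11 KO, FANCJ KO and WT, grouped by the genotype label. Reads had been aligned with Bowtie2 to GRCg6a and quantified with RSEM per the labels and the study's methods, and versions and strand use are not given in the sources used here. For each gene the authors deposited an expected count (an estimate that need not be whole), a TPM and an FPKM value, the last not used here. The authors deposited TPM values normalized for gene length and summing to a common total, and FPKM values scaled to gene length and library size. Deposited columns of gene length and effective length were not tested. Expected counts were rounded to integers. Counts were not whole in at least 11 of the 12 libraries for *PLIN4*, *SPO11*, *CHEK1*, *GINS1*, *FANCM*, *TNFSF13B*, *ARG2* and *DDIT4*, among others. The same held for *CDKN2B*, *CCNE2*, *JAK3*, *PFKFB2*, *RAE1* and *COX1*. Reads of these genes were thus partly shared with other transcripts, as for *TIMELESS*. The quasi-likelihood F test of edgeR 4.0.16 (R 4.3.3, TMM, Benjamini-Hochberg adjustment) was run over genes averaging 1 TPM or more in 1 of the genotypes compared. SEs are the log2 fold change divided by the square root of F. The study used EBSeq, which was not run. TPM gave the levels, and where a symbol had several identifiers the one with the highest mean TPM was taken. Folds against a genotype with at most 3 counts in every library are lower bounds computed against 3 counts per library. The fit was tested on simulated counts.

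The members, gene lists and naming rule were chosen with earlier results of these data known, so no list is independent support. Genes named were the fork genes, the 12 largest gains and the 12 largest losses (adjusted p under 0.05, no overlap, average of 5 TPM or more), up to 8 altered members of each list by p, levels of B-cell genes that did not pass, and the 6 genes of highest WT level that fell on the chromosome holding most such genes. The mitochondrial genes, neighbours, *CHCHD10*, *STAT5B* and *JAK3* were added after their values were seen. Some genes that meet the rule are not reported here, though they count in the totals. Chromosome and gene order come from RefSeq's table for GRCg7b, another build than that of the files, matched by symbol for 11666 and by synonym for 1134 of 24356 genes, so no coordinates are given. Promoter sequence was not analysed here. Alternatives were other filters, DESeq2 1.42.0, DESeq2 size factors, all 12 libraries in 1 fit, the replicate block, stricter thresholds, the fit without that chromosome and leaving out each library. Same-numbered libraries are not stated to share a culture or day.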

Additional observations from a re-analysis of the deposited data

How the results depend on the processing

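Over all genes tested, 502 were higher and 453 lower in *timeless*. These counts changed to 280 higher with a limit of 1 TPM in both genotypes, to 789 higher and 710 lower with DESeq2's Wald test, to 175 and 107 at an adjusted p under 0.01, to 242 lower when the log2 fold change had to reach 1 in size, and to 251 lower without the genes of the chromosome described above. Leaving out 1 library gave 209 to 468 higher and 140 to 489 lower. The lowest counts, 209 and 140, were those without WT 3, followed by 228 and 178 without WT 2. Fewer libraries also mean a less sensitive test, and the cause was not tested. Of 955 altered genes 803 were also called without *timeless* library 2. Against the other mutants, 205 genes were higher and 127 lower in *timeless*. Against *ddx11* alone 84 were lower and against *fancj* alone 271. Without *fancj* library 3, 337 were higher and 326 lower, and leaving out a *timeless* library gave 75 to 113 higher and 22 to 54 lower. Deviations from the line means correlated at 0.103, -0.036 and 0.155 between same-numbered *timeless* and WT libraries, and at -0.188 to 0.126 between those with unlike numbers. These ranges overlap, so they do not decide whether the numbers pair the libraries. In the fit with the replicate block 555 genes were higher and 491 lower, 849 of the 955 were called again, and 217 genes were lower against the other mutants.

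The 155 altered genes named kept their direction in every alternative in which they were tested. Of them 154 passed with DESeq2 size factors, 116 with all 12 libraries in the fit and 140 with the block. Genes near 0 that had not passed changed sign in some refits: over the refits that each left out 1 library the log2 fold change ran from -0.286 to 0.095 for *TIPIN*, from -0.151 to 0.082 for *CLSPN*, from -0.029 to 0.244 for *DDX11* and from -0.28 to 0.131 for *BRIP1*, with *TIPIN* and *CLSPN* above 0 without *timeless* 2, *CLSPN* also without WT 3, *DDX11* below 0 without WT 1, and *BRIP1* above 0 without WT 1 or *timeless* 3. Depth limits levels below about 0.17 TPM in the shallowest library.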
